A study of Homo sapiens with 16 samples.

Results

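VEGFA, DDIT4 and 6 further genes of the cellular response to low oxygen were read in 16 microarrays of HepG2, a human hepatoma cell line. The 9 genes named were VEGFA, DDIT4, BHLHE40, ADM, CA9, HIF1A, BNIP3, NDRG1 and P4HA1, and they were found as the probe sets whose only gene symbol in the platform annotation was one of these. A probe set is a group of short oligonucleotides that together give 1 signal for a transcript. Of the 9 genes, 8 had at least 1 such probe set, 13 probe sets in all among 22215 outside the array controls, and 8 genes among 11963. CA9, a carbonic anhydrase of the cell surface, had none and was not analysed here. The genes were selected on their signals over time in these same arrays, together with what is known of them, so their differences between 6 h and 12 h are given as a description and without a test.

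All cells had received a recombinant adenovirus, which carried either GPI-phospholipase D (GPI-PLD, an enzyme that cleaves glycosylphosphatidylinositol anchors) or, as the control, LacZ, the beta-galactosidase gene. RNA was taken after 6 h or 12 h, with 4 arrays for each combination of virus and time and 10 µg of total RNA per array. The design sets the GPI-PLD virus against the control virus and holds no group without virus, so a difference between 12 h and 6 h is a difference between cells that all carried adenovirus. The labels name no separate cultures behind the 4 arrays of a group, and p-values therefore measure how far these arrays spread, which may be technical.

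Cells sense oxygen mainly through the hypoxia-inducible factors. In oxygenated cells prolyl hydroxylases mark the HIF-1 alpha protein, the product of HIF1A, for binding by the VHL ubiquitin ligase and for degradation. When oxygen is low the protein persists, pairs with ARNT and binds DNA at sites with the core ACGTG or GCGTG. This control acts on protein, whereas an array reads messenger RNA. Several of these genes answer to other signals as well. VEGFA and DDIT4 are known targets of ATF4, a transcription factor of the amino acid and endoplasmic reticulum stress response, and BHLHE40 is also a gene of the circadian clock.

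The arrays were of like quality. Array medians lay between 304.5 and 377.6, the ratio of 3' to 5' signal of GAPDH ran from 0.864 to 1.116, and no 2 arrays held the same values. The GPI-PLD 12 h arrays agreed less well with each other than those of the other groups, with mean correlations within the group of 0.9375 to 0.9391 against 0.9482 to 0.9584. Of 8 hepatocyte markers 7 had a probe set, among them ALB with a mean signal of 85989.6 and AFP with 72933, and 0 of the 7 differed between viruses or times. Of 9 markers of leukocytes, endothelium and fibroblasts, 6 lay below the signal of 208.49 used as a lower limit for testing. The others were PECAM1 (mean signal 286), COL1A1 (774) and DCN (365), with 0 called in any comparison. GPLD1, the gene of the GPI-PLD enzyme, had 5 probe sets, whose log2 differences between GPI-PLD and LacZ cells ran from -0.22 to 0.60 at 6 h and from -0.33 to 0.18 at 12 h. The lowest adjusted p of these GPLD1 differences by limma was 0.998 at 6 h and 0.913 at 12 h. The labels do not say which part of the gene the virus carried, so these probe sets may lie outside it.

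Values below are signals on the deposited linear scale, and differences are on the scale of log2(signal + 63), with standard errors (SE) from a linear model fitted with limma to all 16 arrays. A fold on this scale understates changes of dim probe sets. Where a gene had several probe sets, the brightest stood for it. All 8 measured genes passed the lower limit, and they were tested among 8109 genes. In bulk RNA, fewer cells that express a gene and less RNA per cell cannot be told apart.

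VEGFA, the secreted growth factor that drives the sprouting of blood vessels, was more than 2-fold higher at 12 h than at 6 h on each of its 4 probe sets and under both viruses. On the brightest (210512_s_at) the 4 LacZ arrays read 1755, 1589, 1255 and 1887 at 6 h (mean 1622 ± 273, SD) and 6383, 6703, 5434 and 4853.5 at 12 h (5843.5 ± 852). In GPI-PLD cells the signals were 1651, 1739, 2225 and 1605 at 6 h (1805 ± 285.5) and 5092, 5826, 5572 and 5288.5 at 12 h (5445 ± 321.5). The lowest 12 h array stood far above the highest 6 h array under either virus, while the viruses overlapped at each time. The log2 difference between the times was 1.81 ± 0.13 (SE) in LacZ cells, 3.52-fold, and 1.57 ± 0.13 in GPI-PLD cells, 2.97-fold. Ranked by this difference among the 8109 genes, VEGFA stood at place 7 in LacZ cells and at place 14 in GPI-PLD cells. By mean level the order of the groups was LacZ 6 h, GPI-PLD 6 h, GPI-PLD 12 h and LacZ 12 h, and only the step from 6 h to 12 h exceeded the spread of the arrays.

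The other 3 VEGFA probe sets gave smaller differences over time. The set 212171_x_at read 1169 ± 43.7 at 6 h and 3097 ± 359 at 12 h in LacZ cells, a log2 difference of 1.35 ± 0.11, and 1476 ± 176 and 3721 ± 282 in GPI-PLD cells (1.30 ± 0.11). The set 210513_s_at had a log2 difference of 1.22 ± 0.20 under the LacZ virus and of 1.14 ± 0.20 under the GPI-PLD virus. The set 211527_x_at had 1.31 ± 0.20 and 1.34 ± 0.20. On all 4 sets and under both viruses the 12 h arrays did not overlap the 6 h arrays. VEGFA makes several splice forms, and which of them each set reads was not examined. With the mean of the 4 sets in place of the brightest, the difference was 1.42 under LacZ and 1.34 under GPI-PLD.

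DDIT4 (also called REDD1), an inhibitor of the growth kinase complex mTORC1 that acts through TSC1 and TSC2, had the largest difference over time of the 8 genes. In LacZ cells its 6 h signals were 1920.4, 1973, 2363 and 2885 (mean 2285 ± 446), and those at 12 h were 9194, 9240.5, 10453 and 8751 (mean 9409.7 ± 729.6). In GPI-PLD cells they were 2041, 3322, 4332 and 2399 at 6 h (3024 ± 1026) and 9953, 10949, 8835 and 9099.5 at 12 h (9709 ± 954). All 12 h arrays lay above all 6 h arrays, and the GPI-PLD 6 h arrays were the most spread group, with replicates 2 and 3 above every LacZ 6 h array and the other two within the LacZ range. The log2 difference was 2.03 ± 0.17 in LacZ cells, 4.08-fold, and 1.72 ± 0.17 in GPI-PLD cells, 3.29-fold. DDIT4 stood at place 3 of 8109 in LacZ cells and at place 8 in GPI-PLD cells.

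**Figure D1:**
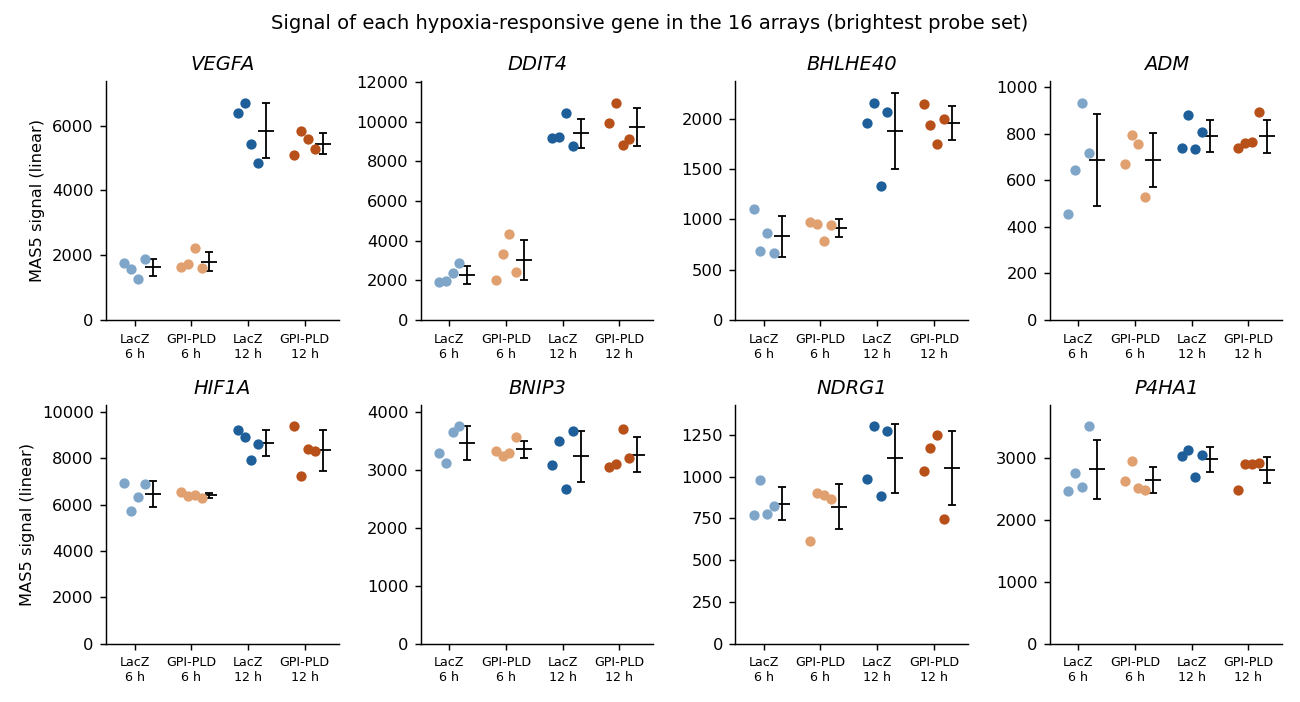
Signal of the brightest probe set of each of the 8 measured genes in every array (vertical axis, linear signal, own scale per panel), by virus and time, with 4 arrays per group and the group mean and SD. VEGFA, DDIT4, BHLHE40 and HIF1A show 12 h arrays above all 6 h arrays under both viruses, and the arrays of ADM, BNIP3, NDRG1 and P4HA1 overlap.

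BHLHE40 (DEC1), a transcriptional repressor that competes for E-box sites, was about as different in LacZ as in GPI-PLD cells. Its brighter probe set (201170_s_at) read 1108, 685.5, 861 and 668 in the LacZ arrays at 6 h (mean 831 ± 204), against 1960.4, 2158.5, 1327 and 2069 at 12 h (mean 1879 ± 377). In GPI-PLD cells it read 973, 955, 781 and 944 (913 ± 88.9) and 2149.5, 1940.2, 1746 and 1993 (1957 ± 167). The times did not overlap, and LacZ 12 h replicate 3 was the lowest of the 12 h arrays. The log2 differences were 1.12 ± 0.16 (2.18-fold) and 1.05 ± 0.16 (2.07-fold), at places 50 and 86 of 8109. A dimmer BHLHE40 set (201169_s_at) rested on low 6 h signals, 104.5, 201, 259.8 and 58.0 in LacZ and 381, 286.5, 434 and 143 in GPI-PLD cells. At 12 h it read 506.5 ± 40.7 and 519.5 ± 52.6, and its differences over time were 1.48 ± 0.30 and 0.71 ± 0.30. Its arrays did not overlap between the times either.

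HIF1A, which encodes the oxygen-regulated subunit itself, differed by much less. LacZ arrays read 6948, 5739.8, 6309 and 6874 at 6 h (6468 ± 563) and 9229.7, 8900.3, 7924 and 8638 at 12 h (8673 ± 555). GPI-PLD arrays read 6537, 6378, 6397 and 6307.5 at 6 h (6405 ± 96.2) and 9374, 7249, 8418 and 8308 at 12 h (8337 ± 869). The 12 h arrays stood above the 6 h arrays under each virus, with GPI-PLD 12 h replicate 2 the nearest to the 6 h range. The log2 differences were 0.42 ± 0.08 (1.34-fold) and 0.37 ± 0.08 (1.29-fold), at places 748 and 1180. These are levels of HIF1A transcript, and the protein was not measured here.

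The other 4 genes overlapped between the times under both viruses. ADM, whose product adrenomedullin is a secreted peptide that widens vessels, ranged over 453.5 to 933 at 6 h and 736 to 881 at 12 h in LacZ cells, and over 530.4 to 794 and 738 to 894 in GPI-PLD cells. Its log2 differences were 0.22 ± 0.18 and 0.19 ± 0.18. NDRG1, a stress and differentiation gene, ranged over 769.6 to 980.2 and 885 to 1300.3 in LacZ and over 617.5 to 904 and 749 to 1249 in GPI-PLD cells. In each case 3 of 4 NDRG1 arrays at 12 h lay above the highest at 6 h, with differences of 0.37 ± 0.17 and 0.33 ± 0.17. P4HA1 encodes the catalytic subunit of collagen prolyl 4-hydroxylase, an enzyme other than the prolyl hydroxylases that act on HIF. It ranged over 2472 to 3518 and 2696 to 3139.6 in LacZ and over 2489 to 2958 and 2496 to 2924 in GPI-PLD cells, with differences of 0.09 ± 0.11 and 0.08 ± 0.11.

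BNIP3, a mitochondrial outer membrane protein that takes part in mitophagy, was the one gene with negative differences over time on its brighter set. That set (201849_at) ranged over 3129 to 3753 and 2681 to 3667 in LacZ and over 3250.3 to 3573 and 3047 to 3704 in GPI-PLD cells, with differences of -0.10 ± 0.10 and -0.04 ± 0.10. The other BNIP3 set (201848_s_at) had -0.20 ± 0.11 and 0.06 ± 0.11. The SEs of BNIP3 (0.10) and P4HA1 (0.11) were near that of HIF1A (0.08). The 95% interval of the time difference of BNIP3 ran from -0.31 to 0.11 in LacZ cells, and that of P4HA1 from -0.13 to 0.31.

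Over the 8 genes, 4 had 12 h arrays that lay wholly above the 6 h arrays in LacZ cells, and among all 8109 genes 6.7% did. In GPI-PLD cells it was also 4, against 8.04% of all genes. Since the genes were proposed for their changes over time, nothing is read from these shares. The median difference over the 8 genes was 0.40 under LacZ and 0.35 under GPI-PLD, and 7 of 8 were above 0 under each virus. The range among them was wide, from -0.10 to 2.03 in LacZ cells and from -0.04 to 1.72 in GPI-PLD cells. The rule used gene names and no threshold, so there are no genes just inside or outside it.

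**Figure D2:**
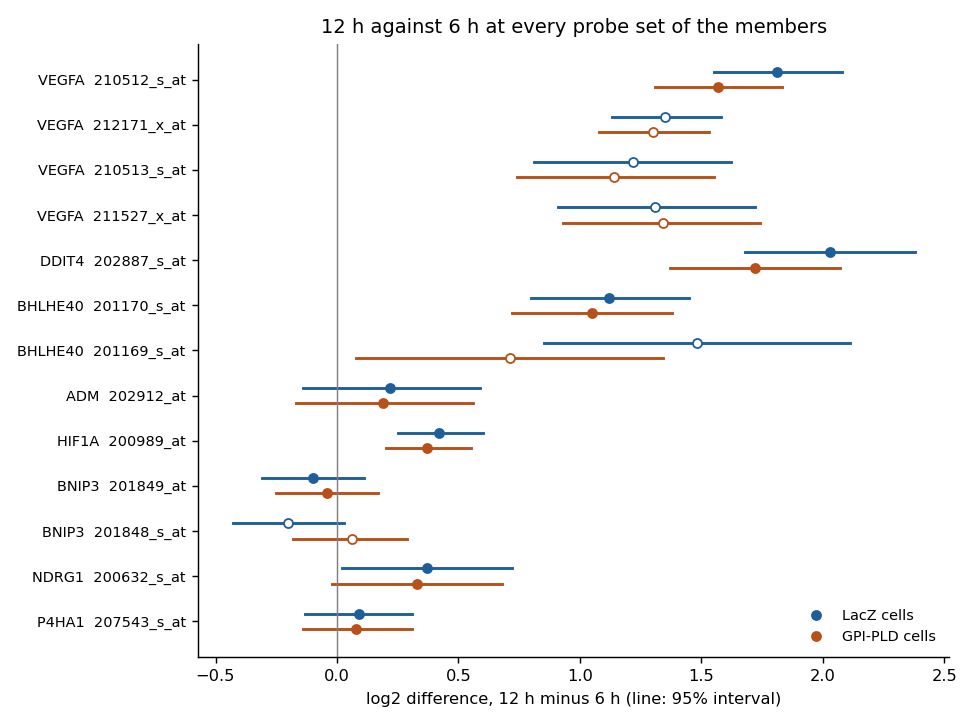
Log2 difference between 12 h and 6 h (horizontal axis, log2(signal + 63) scale) of every probe set of the 8 genes under each virus, with 95% intervals; filled circles mark the brightest probe set of a gene and open circles the others. DDIT4 and VEGFA stand farthest to the right, at 2.03 and 1.81 in LacZ cells, and BNIP3 and P4HA1 lie near 0.

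The sequence before the transcription start was read for these genes, to show whether the letters of the HIF core occur in those whose times stood apart and in those whose times overlapped. The 250 bases before the start came from RefSeq on GRCh38.p14. Windows of 7 of the 9 genes were read, 6 of them measured here, with 7 windows because HIF1A has 2 starts. VEGFA was not matched. The chromosome that holds NDRG1 was left out of the search, so NDRG1 was not read. Below are DDIT4 (chr10:72273674-72273923, plus strand) and BHLHE40 (chr3:4979187-4979436, plus strand), whose times did not overlap, and BNIP3 (chr10:131981924-131982173, minus strand) and P4HA1 (chr10:73096867-73097116, minus strand), whose times did. Each is written 5′ to 3′ on the gene's strand and ends at the last base before the start, and capitals mark ACGTG on either strand.
DDIT4: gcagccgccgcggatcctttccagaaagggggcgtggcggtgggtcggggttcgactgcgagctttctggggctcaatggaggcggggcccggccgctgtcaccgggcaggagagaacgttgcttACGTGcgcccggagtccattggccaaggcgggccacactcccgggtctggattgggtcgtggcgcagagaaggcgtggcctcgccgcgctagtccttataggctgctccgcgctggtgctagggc
BHLHE40: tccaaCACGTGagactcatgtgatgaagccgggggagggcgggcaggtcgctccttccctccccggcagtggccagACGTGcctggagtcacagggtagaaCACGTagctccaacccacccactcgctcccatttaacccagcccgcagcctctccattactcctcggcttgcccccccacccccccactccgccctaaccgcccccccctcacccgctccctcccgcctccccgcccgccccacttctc
BNIP3: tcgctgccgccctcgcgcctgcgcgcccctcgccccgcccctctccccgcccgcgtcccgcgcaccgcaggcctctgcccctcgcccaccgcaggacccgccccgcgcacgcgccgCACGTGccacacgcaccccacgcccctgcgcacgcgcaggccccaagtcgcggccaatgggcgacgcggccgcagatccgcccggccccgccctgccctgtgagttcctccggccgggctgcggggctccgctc
P4HA1: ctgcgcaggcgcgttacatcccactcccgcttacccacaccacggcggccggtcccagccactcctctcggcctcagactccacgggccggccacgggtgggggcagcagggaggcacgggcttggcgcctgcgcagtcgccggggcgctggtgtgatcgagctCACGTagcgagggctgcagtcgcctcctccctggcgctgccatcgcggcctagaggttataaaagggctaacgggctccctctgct

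ACGTG, searched on both strands, was in the windows of these 4 genes, 4 of the 7 windows, and not in those of ADM or in either HIF1A window. In DDIT4 it lay once, 125 bases before the start, and in P4HA1 once, 86 bases before it on the other strand. BHLHE40 held 4 matches, of which a pair formed the palindrome CACGTG (the E-box form, which contains ACGTG on both strands) 245 bases before the start. BNIP3 held 2 matches that formed 1 such palindrome 134 bases before its start. Among windows of the same length, 18.5% of all 35114 and 22.1% of the 9950 that belong to tested genes held ACGTG, and CACGTG was in 6.35% and 8.3%. The second core, GCGTG, was in 4 of the 7 windows (DDIT4, ADM, BNIP3 and the first of the HIF1A windows), against 32.2% of all windows and 43.2% of those of tested genes. TGATGNAA, a form of the composite site bound by C/EBP and ATF4 proteins, was in 0 of the 7, against 3.14% and 1.84%. The letters were thus present both in genes whose times stood apart and in genes whose times overlapped. A match is a run of letters and no measured site, and the search says nothing of sequence outside these windows.

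The question of the design was whether the GPI-PLD virus changed gene expression against the LacZ virus. For the 8 genes no difference between the viruses passed the test at 6 h or at 12 h (limma, Benjamini-Hochberg over 8109 genes, 0 of 8 called at each time, against 0.0% of all genes). At 6 h the GPI-PLD mean was above the LacZ mean for 4 of the 8 and below it for 4, with differences from -0.08 to 0.35, and at 12 h above it for 3 and below it for 5, from -0.09 to 0.08. The median was 0.01 at 6 h and -0.03 at 12 h, beside 0.003 and 0.006 over all genes. The lowest adjusted p by limma was 0.998 at 6 h and 0.885 at 12 h. Over all genes limma gave 0 calls as well, with 375 genes at an unadjusted p under 0.05 at 6 h and 584 at 12 h, and with eBayes without trend and robust the count was 2 at 6 h and 0 at 12 h.

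The intervals show how large a difference the arrays leave room for. For VEGFA on its brightest set the difference was 0.15 ± 0.13 at 6 h, with a 95% interval of -0.11 to 0.41 (0.927 to 1.33-fold), and -0.09 ± 0.13 at 12 h, with -0.35 to 0.17 (0.783 to 1.13-fold). For HIF1A they were -0.01 ± 0.08 (-0.19 to 0.17) and -0.06 ± 0.08 (-0.24 to 0.12), the narrowest of the 8 genes. For BHLHE40 they were 0.15 ± 0.16 (-0.18 to 0.47) and 0.08 ± 0.16 (-0.25 to 0.40). These are differences between viruses on the log2 scale, and each interval holds 0. ADM had intervals of -0.34 to 0.39 and -0.37 to 0.36. BNIP3 had -0.25 to 0.17 and -0.19 to 0.23. NDRG1 had -0.39 to 0.31 and -0.43 to 0.27, and P4HA1 -0.30 to 0.14 and -0.31 to 0.14. The median half-width of such an interval over all genes was 0.353.

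DDIT4 at 6 h stood nearest to a difference between the viruses among the 8. Its mean was 3024 ± 1026 in GPI-PLD and 2285 ± 446 in LacZ cells, a log2 difference of 0.35 ± 0.17 with a 95% interval of 0.00 to 0.71 and a limma p of 0.0485, which became 0.998 after adjustment. Only 2 of 4 GPI-PLD arrays lay above the highest LacZ array. Without GPI-PLD 6 h replicate 3 the difference was 0.16, and without GPI-PLD 6 h replicate 1 it was 0.52. At 12 h it was 0.04 ± 0.17.

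A second VEGFA probe set differed from the brightest one in this comparison. On 212171_x_at the GPI-PLD arrays read 1509, 1553, 1622 and 1221 at 6 h and the LacZ arrays 1214, 1162, 1188.5 and 1112, without overlap, a difference of 0.31 ± 0.11. Among the 8109 genes, each read by its brightest set, 1.48% had GPI-PLD arrays wholly above the LacZ arrays at 6 h. At 12 h they read 3436, 4016, 3903 and 3531 against 2634, 3146, 3508.5 and 3100.0, with 3 of 4 GPI-PLD arrays above the highest LacZ array (0.26 ± 0.11). Averaged over the times the difference was 0.29 ± 0.08 with a 95% interval of 0.13 to 0.45, and its limma p of 0.00121 became 0.999 over 22215 probe sets. The other 3 VEGFA sets had averaged differences of 0.03, 0.11 and -0.05. The set was singled out after its values were seen. The dim BHLHE40 set had a difference of 0.80 ± 0.30 at 6 h, with overlapping arrays (limma p 0.0151, adjusted 0.9997), and of 0.03 ± 0.30 at 12 h.

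**Figure D3:**
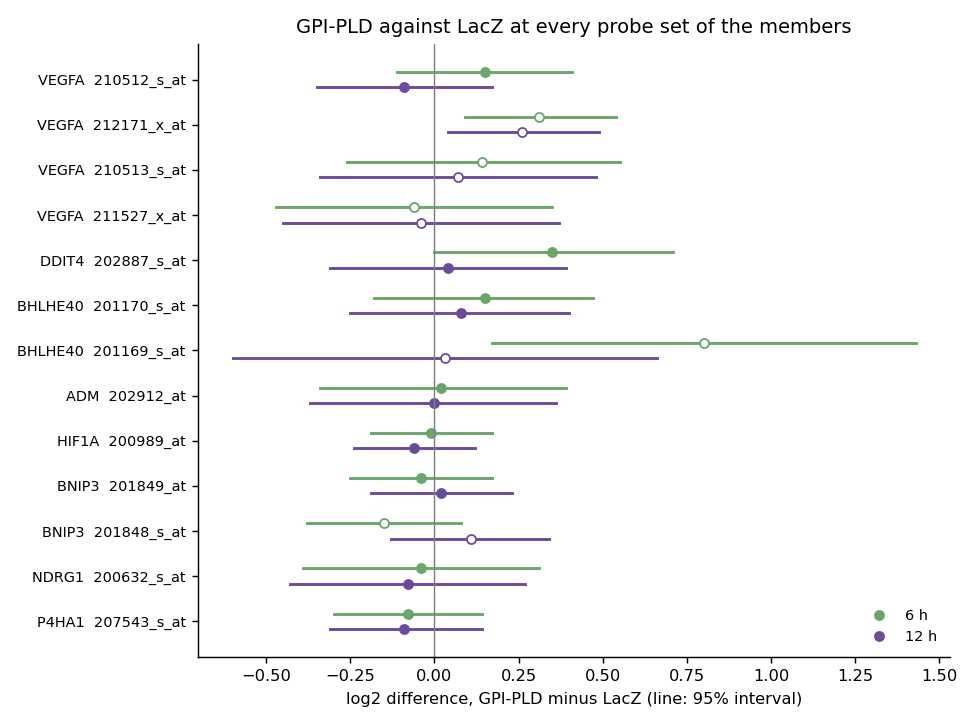
Log2 difference between GPI-PLD and LacZ cells (horizontal axis, log2(signal + 63) scale) at 6 h and at 12 h for every probe set of the 8 genes, with 95% intervals; filled circles mark the brightest set of a gene and open circles the others. The intervals of the brightest sets cross 0, except that of DDIT4 at 6 h (0.35), whose lower end is at 0.00.

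Whether the virus effect differed between the times was tested as 1 term, which is also the test of whether the time difference was unlike in the 2 viruses. For the 8 genes 0 passed (limma), where 0.0123% of all genes, that is 1 gene, did. On the brightest sets the terms ran from -0.31 to 0.06, and 7 of 8 were below 0, where 50.3% of all genes were above 0. For DDIT4 the term was -0.31 ± 0.24 (95% interval -0.81 to 0.19, adjusted p 0.787 by limma) and for VEGFA -0.24 ± 0.18 (-0.61 to 0.13, adjusted p 0.783). A smaller time difference in GPI-PLD than in LacZ cells was therefore within the spread of the arrays for both. The other VEGFA sets had terms nearer to 0, of -0.05 ± 0.15, -0.07 ± 0.28 and 0.02 ± 0.28. For BHLHE40 the term was -0.07 ± 0.22 and for HIF1A -0.05 ± 0.12. The dim BHLHE40 set had -0.77 ± 0.43 (limma p 0.0862, adjusted 0.766). The 4 genes whose times overlapped had terms between -0.04 and 0.06 on their brightest sets, and the other BNIP3 set had 0.26 ± 0.16.

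The wider pathway was read through 5 lists of genes outside the 8, which held 118 symbols, 109 of them on the array and 85 above the lower limit. In LacZ cells 6 of the 85 rose with time and 3 fell, that is 10.6% against 6.89% of all genes, and the median difference was 0.09 beside 0.005. In GPI-PLD cells 5 rose and 5 fell, 11.8% against 9.64%, with a median of 0.01 beside 0.013. Between the viruses 0 of the 85 passed (limma) at 6 h, with 3 at an unadjusted p under 0.05, and 0 at 12 h, with 6. The time comparison in LacZ cells and that in GPI-PLD cells share no arrays, but each shares its arrays with the virus comparisons.

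Among the secreted products, IGFBP1, a liver protein that binds insulin-like growth factors, went from 13511 ± 4279 to 31196 ± 2669.5 in LacZ cells, 2.39-fold (log2 1.26 ± 0.17, adjusted p 0.000105 by limma). In GPI-PLD cells IGFBP1 rose by 2.16-fold (1.11 ± 0.17, adjusted p 0.000352). STC2, a secreted glycoprotein also known as a gene of the endoplasmic reticulum stress response, rose from 980.4 ± 123 to 2106 ± 238 in LacZ cells (1.06 ± 0.13) and from 908 ± 125 to 2102 ± 344 in GPI-PLD cells (1.15 ± 0.13). Of 13 tested secreted products, 2 rose in LacZ cells, and 2 rose and 1 fell in GPI-PLD cells. That is 15.4% and 23.1% called, against 6.89% and 9.64% of all genes. The one that fell was MIF, a cytokine, with -0.30 ± 0.09 (adjusted p 0.0379 by limma). The MIF call was lost in 13 of 27 alternatives (limma adjusted p up to 0.139). These include leaving out any 1 of the 8 GPI-PLD arrays (0.0545 to 0.0923).

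Among 25 other targets that act in the cell, 3 rose and 1 fell in LacZ cells and 2 rose and 1 fell in GPI-PLD cells. VLDLR, a lipoprotein receptor, rose by 2.01-fold in LacZ (1.01 ± 0.21, adjusted p 0.00397 by limma) and by 2.49-fold in GPI-PLD cells (1.31 ± 0.21, adjusted p 0.000199). KDM3A, a histone demethylase, rose by 0.49 ± 0.12 and 0.56 ± 0.12, and its call in LacZ cells was lost without LacZ 6 h replicate 2 (limma adjusted p 0.057) or LacZ 12 h replicate 2 (0.0535). HMOX1, heme oxygenase 1, also a gene of the oxidative stress response, rose in LacZ cells by 0.66 ± 0.18 (adjusted p 0.0256). The HMOX1 call was lost without LacZ 6 h replicate 3 or 4 or LacZ 12 h replicate 1, 2 or 3 (limma adjusted p 0.0531 to 0.0951), with all probe sets tested (0.0613) and with plain eBayes (0.073), and its GPI-PLD difference was 0.55 ± 0.18 (adjusted p 0.0591). INSIG2, a brake on sterol synthesis, fell in LacZ cells by 0.56 ± 0.10 (adjusted p 0.000983 by limma), and its GPI-PLD difference was -0.29 ± 0.10 (adjusted p 0.0845). FAM162A, a mitochondrial protein, fell in GPI-PLD cells on its brightest set (-0.29 ± 0.09, adjusted p 0.0374). The FAM162A call was lost in 10 of 27 alternatives. These include leaving out GPI-PLD 6 h replicate 2, 3 or 4 or GPI-PLD 12 h replicate 1 or 4 (limma adjusted p 0.0797 to 0.129). With the mean of its probe sets the difference was 0.02.

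The glycolytic enzymes and glucose transporters are the classic metabolic targets of HIF. Of 20 tested, 0 passed in LacZ cells (limma, against 6.89% of all genes). At an unadjusted p under 0.05 were 4 of the 20 and 1638 of all 8109 genes. There 9 were above and 11 below 0, with a median of -0.05. In GPI-PLD cells 1 rose and 2 fell (3 of 20, against 9.64% of all genes). At an unadjusted p under 0.05 were 8 of the 20 and 1846 of all 8109 genes. There 15 of the 20 were below 0, and the median was -0.11, beside 0.013 over all genes. SLC2A1, the glucose transporter GLUT1, rose in GPI-PLD cells from 6490.1 ± 536 to 8813 ± 738 (0.44 ± 0.09, limma adjusted p 0.00226), a call lost with the mean of its probe sets (0.199). LDHA, lactate dehydrogenase A, fell in GPI-PLD cells from 31510.3 ± 752 to 25983 ± 1012 (-0.28 ± 0.07, adjusted p 0.0141, and 0.0654 with plain eBayes), and PGAM1, phosphoglycerate mutase, by 1.32-fold (-0.40 ± 0.10, adjusted p 0.00786). In LacZ cells LDHA had -0.23 ± 0.07 (adjusted p 0.0503) and PGAM1 -0.27 ± 0.10 (adjusted p 0.0982). Other genes that did not pass were higher at 12 h. HK2, a hexokinase, had the largest LacZ difference of the 20, 0.73 ± 0.25 (limma adjusted p 0.103), with arrays not overlapping. Its GPI-PLD difference was 0.31 ± 0.25 (adjusted p 0.512). ENO2, an enolase, had 0.45 ± 0.15 under the GPI-PLD virus (limma adjusted p 0.0665, arrays not overlapping) and 0.15 ± 0.15 under the LacZ virus.

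Among the regulators of HIF, 14 were tested, of which 1 rose and 1 fell in LacZ cells and 1 fell in GPI-PLD cells. That is 14.3% and 7.14% called, against 6.89% and 9.64% of all genes. SIAH2, a ubiquitin ligase for prolyl hydroxylases, rose in LacZ cells (0.40 ± 0.12, adjusted p 0.0471 by limma), and the call was lost in 17 of 27 alternatives. These include leaving out any 1 of the 8 LacZ arrays, GPI-PLD 6 h replicate 1, 2 or 3, or GPI-PLD 12 h replicate 4 (limma adjusted p 0.0516 to 0.152). RBX1, a ring-finger subunit of the VHL ligase and of other cullin ligases, fell from 5281 ± 611.5 to 3507 ± 405 in LacZ cells (-0.58 ± 0.12, adjusted p 0.00365) and from 4656 ± 866 to 3351 ± 447.5 in GPI-PLD cells (-0.46 ± 0.12, adjusted p 0.0172). The RBX1 call in GPI-PLD cells was lost without GPI-PLD 6 h replicate 4 or GPI-PLD 12 h replicate 1 or 3 (limma adjusted p 0.0508 to 0.0857) and with plain eBayes (0.0594). The partners and paralogs of the 8 genes (VEGF and adrenomedullin receptors, the TSC and mTOR genes that DDIT4 acts on, other NDRG genes) had 13 tested members. Of these 0 rose, and 1 fell in LacZ cells. That is 7.69% called in LacZ and 0.0% in GPI-PLD cells, against 6.89% and 9.64% of all genes. NDRG3, a paralog of NDRG1, fell in LacZ cells by 0.45 ± 0.11 (adjusted p 0.0128 by limma), and in GPI-PLD cells its difference was -0.25 ± 0.11 (adjusted p 0.175).

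Between the viruses the pathway genes with the smallest p at 6 h were INSIG2 (-0.38 ± 0.10, adjusted p 0.836 by limma), RHEB, the GTPase that turns mTORC1 on (-0.27 ± 0.08, 0.836), and PKM, pyruvate kinase (0.33 ± 0.14, 0.998). At 12 h they were P4HA2, a paralog of P4HA1 (0.33 ± 0.12, 0.605), SLC2A3, a glucose transporter (-0.41 ± 0.16, 0.658), and EDN1, the vasoconstrictor peptide endothelin 1 (-0.91 ± 0.37, 0.658). Averaged over the times they were INSIG2 (-0.24 ± 0.07), FAM162A (-0.14 ± 0.06) and EDN1 (-0.53 ± 0.26). For the difference between the times they were RHEB (0.43 ± 0.12), P4HA2 (0.38 ± 0.17) and PFKP, a phosphofructokinase (1.07 ± 0.51). None of these passed. These values are from the brightest sets. Those of EDN1 and PFKP were dim. EDN1 read 214.1, 120.6, 480.1 and 36.1 in the GPI-PLD 12 h arrays, against 339.6 to 392.5 in the LacZ 12 h arrays. The group means of PFKP ran from 167.7 to 320.6, around the lower limit of 208.49. On its dimmer set PKM had -0.32 ± 0.36 at 6 h, and FAM162A had 0.47 ± 0.25 averaged over the times. The other SLC2A3 sets had -0.35 ± 0.24 and 0.04 ± 0.13 at 12 h. The other RHEB sets ran from -0.61 to -0.05 at 6 h.

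A list of ATF4 target genes, which shares no gene with the 8, was read beside the hypoxia lists. It was chosen with the changes of these arrays over time known, so its count is not independent evidence. Of 24 listed genes 21 were tested, and under each virus 17 of them rose (81.0%, limma), where 6.89% of all genes passed in either direction in LacZ and 9.64% in GPI-PLD cells. The medians were 0.87 and 0.92, beside 0.005 and 0.013 over all genes. All 21 were above 0 under both viruses. The largest differences in LacZ cells were those of the transcription factor CEBPB (2.03 ± 0.08), the cystine transporter SLC7A11 (2.01 ± 0.12) and PPP1R15A, a phosphatase subunit that restores translation (1.89 ± 0.18). In GPI-PLD cells they were ATF3 (2.17 ± 0.18) and DDIT3 (1.82 ± 0.14), both stress transcription factors, and SLC7A11 (1.78 ± 0.12). The differences of DDIT4 and VEGFA lay inside the range of this list, which ran from 0.17 to 2.03 in LacZ and from 0.22 to 2.17 in GPI-PLD cells. In the 4 lists of HIF regulators and targets the highest were 1.26 in LacZ and 1.31 in GPI-PLD cells. The 8 genes and the ATF4 list were both chosen with these changes known, so nothing is read from these ranges. Which factor acted on DDIT4 and VEGFA was not tested.

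**Figure D4:**
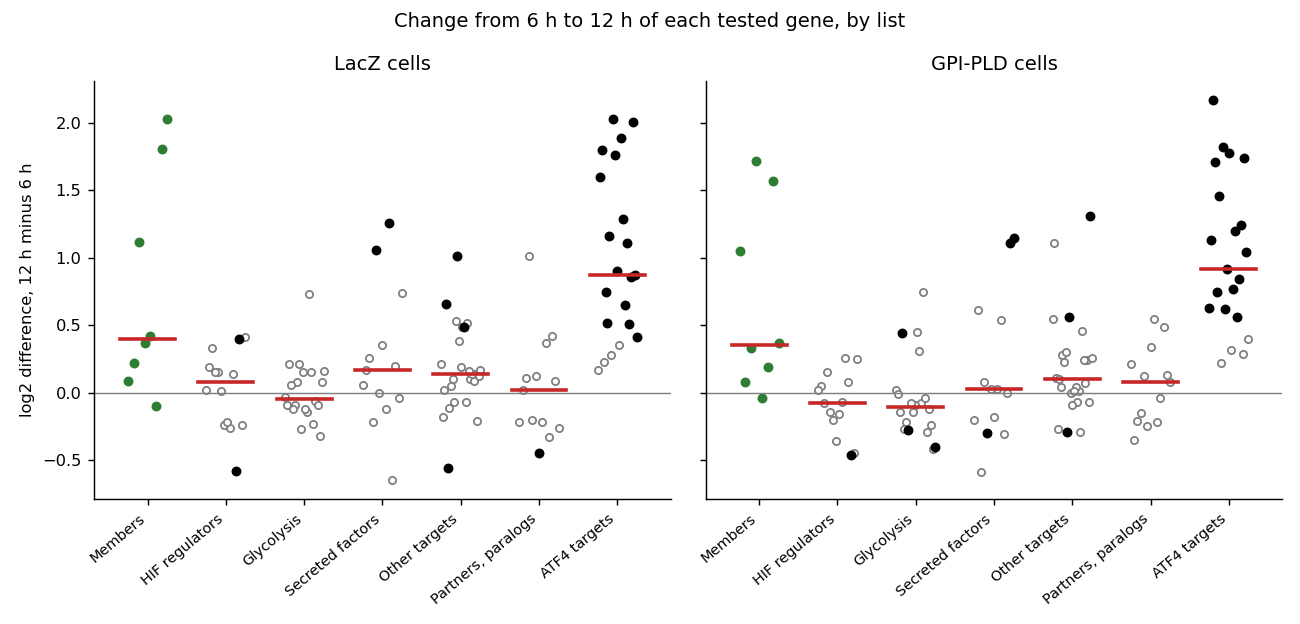
Log2 difference between 12 h and 6 h (vertical axis, log2(signal + 63) scale) of each tested gene of the 8 genes (green), the 5 hypoxia pathway lists and the ATF4 target list, in LacZ and in GPI-PLD cells; black points had an adjusted p under 0.05 by limma, open grey points did not, and red bars are medians. Medians of the hypoxia pathway lists lie near 0 (-0.05 to 0.17 in LacZ cells), and that of the ATF4 targets at 0.87 in LacZ and 0.92 in GPI-PLD cells.

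The genes nearest to VEGFA and DDIT4 in pattern were found by the root mean square difference of log2 values over the 16 arrays, each gene centred on its own mean, among 8108 other genes. Nearest to VEGFA was CTH, an enzyme of cysteine synthesis, at 0.191, followed by CEBPB (0.199), the glutathione synthesis gene GCLC (0.208), HERPUD1 (0.213) and DNAJB9 (0.224), both of the endoplasmic reticulum. DDIT4 stood at place 10 from VEGFA, at 0.260, and BHLHE40 at place 41. Nearest to DDIT4 was SLC7A11 at 0.193, then CEBPB (0.206), VEGFA (0.260), HERPUD1 (0.293) and the secreted stress factor GDF15 (0.303). HIF1A stood at place 299 from VEGFA and 332 from DDIT4, and BNIP3 at 4208 and 4347. These distances share all 16 arrays, and the difference between 6 h and 12 h is part of each pattern, so they are a description only.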

How the data were processed

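The authors deposited MAS5 signals, an intensity on a linear scale, per the submitters' processing notes. The 2% trimmed mean of every array was 1000.3 to 1000.4. Further steps are not given in the sources used here. Arrays of a group carry numbers by order of deposit, since no label states a replicate number, pair or batch.

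Of 22283 probe sets, 68 were controls, 19065 had 1 gene symbol, 1043 several and 2107 none. Gene IDs of 19053 were found in a RefSeq gene table (GRCh38.p14), which changed 0 symbols. The analysis used log2(signal + 63), the added 63 being the 20th percentile over the whole table. A gene was read by its brightest probe set with 1 symbol and tested where that mean reached the 40th percentile (208.49). Other probe sets were tested in a fit of all 22215. Limma 3.58.1 (R 4.3.3, statmod 1.5.0) fitted 1 mean per group, and the variances were moderated by eBayes (trend and robust on) with 12 residual degrees of freedom and a median of 10.6 prior ones. P-values were adjusted by Benjamini-Hochberg over all genes or all probe sets of a comparison, with 0.05 as the threshold. The steps were tested on simulated data. Tables and plots used Python 3.11.15, pandas 2.3.3 and matplotlib 3.10.9.

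The genes and lists were chosen with earlier results of these data known. Named beside the 8 genes were pathway genes that passed with arrays not overlapping (up to 6 each way per time comparison), the 3 with the smallest p per virus comparison, the 5 nearest in pattern to VEGFA and DDIT4, and the 3 largest ATF4 targets per time comparison. Alternatives were quantile normalization, 75th percentile scaling, a pseudocount of 0 or 4 times as large, a filter at the 60th percentile or none, averaging the probe sets of a gene, testing every probe set, plain eBayes, array weights, and omitting 1 array at a time. Omitting both GPI-PLD 12 h replicates 2 and 4 was an alternative chosen after seeing the data.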

Additional observations from a re-analysis of the deposited data

Results flagged for a closer look

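Each group of 4 arrays was examined for an array far from the others by Dixon's test, over 152 groups of the named probe sets. The test picked 10, where chance picks about 1 in 20 groups. Among the hypoxia-responsive genes, the VEGFA set 210513_s_at read 836.1 in GPI-PLD 6 h replicate 4, against 1294.9 to 1346.8 in the other arrays of that group. BHLHE40 (201170_s_at) read 781.2 in GPI-PLD 6 h replicate 3, below 943.9 to 973.4. NDRG1 read 617.5 in GPI-PLD 6 h replicate 1, below 865.6 to 903.9. P4HA1 read 2495.9 in GPI-PLD 12 h replicate 1, below 2902.3 to 2924.1.

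Of the other named genes, DDIT3 read 789.8 in LacZ 6 h replicate 1, below 1181.8 to 1198.3. INSIG2 read 2430.7 in GPI-PLD 6 h replicate 3, below 3131.7 to 3293.6. STC2 (203438_at) read 721.8 in GPI-PLD 6 h replicate 1, below 957.4 to 992.7. SLC2A3 read 2019.3 in LacZ 6 h replicate 4, below 2870.5 to 2991.1. RBX1 read 4109.8 in LacZ 12 h replicate 3, above 3245.6 to 3367.1. RHEB (201453_x_at) read 9169.1 in GPI-PLD 12 h replicate 2, above 7461.6 to 7561.0.

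All GPI-PLD arrays of this RHEB set lay below the LacZ arrays at 6 h and above them at 12 h. At 6 h the mean was 8190.5 under LacZ and 6803.7 under GPI-PLD, and at 12 h 7025.7 and 7921.3. The difference of the virus effects between the times was 0.43 on the log2 scale, with an adjusted p of 0.381 over 8109 genes and 0.507 over 22215 probe sets (limma), so it did not pass. The other 4 RHEB sets had differences of 0.13 to 0.91, with adjusted p from 0.747 to 0.97 (limma).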

How the results depend on the processing

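Of 1296 values of the 8 genes under the alternatives, 1294 kept their side of the threshold (virus terms) or moved by less than the spread (time differences). The exceptions were VEGFA over time with the mean of its probe sets (1.42 in LacZ and 1.34 in GPI-PLD cells). Virus differences that did not pass were counted as kept also where their sign changed. Such a change was seen for VEGFA at 12 h (-0.18 to 0.05) and ADM at 6 h (-0.14 to 0.17), among others. Counts of calls over all genes moved more. For the difference of the virus effects between the times, the count of 1 became 0 with quantile normalization, 75th percentile scaling, no filter, the mean of probe sets, all probe sets, or eBayes without trend and robust. It became 2 with 4 times the pseudocount or the 60th percentile filter, and 0 to 3 with single arrays left out. The virus count at 6 h became 2 with eBayes without trend and robust. At 12 h it ran from 0 to 2 with single arrays left out. Without GPI-PLD 12 h replicates 2 and 4 together, an alternative added after the data were seen, the count was 3 at 12 h and 2 for the difference between the times. Calls over time ran from 390 to 635 in LacZ and from 548 to 831 in GPI-PLD cells with single arrays left out. The pathway count over time in GPI-PLD cells was 10, and it was 6 with eBayes without trend and robust and 7 to 11 with single arrays left out. In LacZ cells it was 9, and 6 to 11. The split of calls over time in LacZ cells, 295 higher and 264 lower, became 243 and 391 with 75th percentile scaling. No scaling moved the median of all genes by 0.1 or more.

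No paired analysis was possible because the labels give no replicate numbers. The number of arrays, 4 per group, limits the precision, with a median half-width of the 95% interval of 0.353 for 1 comparison and 0.499 for a difference of virus effects.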
